A study of Mus musculus with 6 samples.

Results

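The comparison described here set the accessible chromatin regions of cells treated with BRM014 for 30 h against those of cells treated for 6 h. Its members were the 39971 loci obtained by joining the regions of both lists, of 49676 loci in all 3 lists of the study. Each was called at both times, at 30 h only or at 6 h only, where overlapping entries of a list were first merged into 1 region and an overlap of at least 1 bp counted as shared. The vehicle list was used only afterwards, to label these loci.

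The assay was ATAC-seq, which reads out open DNA through the adapters that Tn5 transposase leaves there. The cells were NMuMG, an established line of normal mouse mammary gland epithelium with the genotype label WT. There were 3 groups of 2 biological replicates: DMSO, the vehicle, whose time (30 h) is given only by the name of its list, BRM014 for 6 h and BRM014 for 30 h. Both replicates of a group were joined in 1 peak list by the authors, from separate samples at each time, so there was no spread between replicates and no test between the times. Intervals are 95% Wilson intervals unless another kind is named, treat regions as independent and cover counting error only. The protocol text mentions TGFβ, which no sample label carries.

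SWI/SNF complexes use the energy of ATP to slide or evict nucleosomes, through the ATPase BRG1 or its relative BRM. They keep many enhancers accessible, and such sites can close soon after the ATPases stop. BRM014 inhibits both ATPases. A peak in ATAC-seq marks a stretch free enough of nucleosomes for Tn5 to insert, and its summit is the position where fragments pile up most.

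The 6 h list held 25922 regions covering 17.9 Mb and the 30 h list 38422 regions covering 25.1 Mb. Read totals were not analysed here. The lowest local background recovered from the lists was 2.12 at 6 h and 2.72 at 30 h, and if it follows depth, the 6 h list had 78.0% of the depth of the 30 h list. A region not called at 6 h is therefore not the same as a closed region. Regions are named by chromosome and position on the mouse build mm9, and no gene names were assigned.

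Most regions called at 6 h were also called at 30 h, and the longer 30 h list added many more regions. Of the 39971 loci, 23935 were called at both times (59.9%, 59.4 to 60.4%), 14256 at 30 h only (35.7%, 35.2 to 36.1%) and 1780 at 6 h only (4.45%, 4.26 to 4.66%). Seen from each list, 37.1% of the 30 h regions had no 6 h region (36.6 to 37.6%), and 6.87% of the 6 h regions had no 30 h region (6.57 to 7.18%). In bases, 16.0 Mb were covered at both times, which was 89.7% of the 6 h coverage and 63.8% of the 30 h coverage. The loci called at 30 h only covered 6.94 Mb and those called at 6 h only 0.811 Mb. With lists cut to equal length by fold enrichment, which makes the classes nearly equal in size by construction, the shares were 25% and 24.5%. With both lists limited to the highest deposited score, 1000, they were 40.1% and 3.40%. A region whose counterpart had a lower score then counted as having none. That score was held by 57.2% of the 6 h regions and 62.4% of the 30 h regions. The lowest score was 540 in each list. Whether a filter set that floor, and whether agreement between replicates entered it, was not tested. In the full lists 25.4% of the regions called at 30 h only held it, against 84.3% of the shared 30 h regions.

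Regions called at one time only lay in the weaker part of their list. Strength is given here as the percentile of the authors' fold enrichment (the summit over its local background) within the own list, and percentiles of lists of different lengths are not compared. In the 30 h list the regions called at 30 h only had a median percentile of 29.4 (quartiles 14.3 and 48.6), and the shared ones 64.4 (39.6 and 83.5). In the 6 h list the regions called at 6 h only had a median percentile of 21.0 (10.6 and 35.0), and the shared ones 52.9 (27.6 and 76.6). The strongest 10% of the 30 h list still held 116 regions called at 30 h only, and the strongest 10% of the 6 h list held 2 called at 6 h only.

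The share called at one time only fell through the deciles of fold enrichment in both lists. The weakest decile of the 30 h list held 66.2% such regions (64.7 to 67.7%), the fifth 43.2% (41.6 to 44.7%) and the strongest 3.02% (2.52 to 3.61%). For the 6 h list the weakest decile held 16.2% (14.8 to 17.6%) and the strongest 0.0772% (0.0212 to 0.281%). Ranked on the authors' -log10 q, which grows with depth as well as with enrichment, the fall was steeper. The weakest decile then held 90.1% without a 6 h region in the 30 h list (89.1 to 91.0%) and 31.4% without a 30 h region in the 6 h list (29.6 to 33.2%). Of the strongest decile of the 30 h list by -log10 q, 1 region had no 6 h region.

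**Figure D1:**
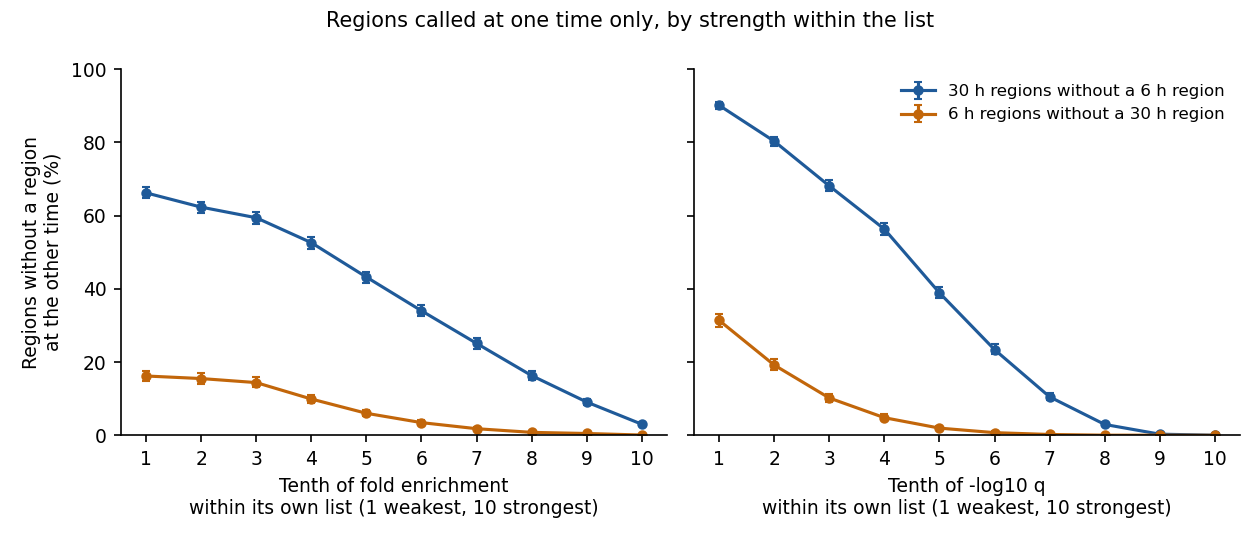
Share of regions with no region at the other time (%, vertical axis) by decile of fold enrichment (left) and of -log10 q (right) within the own list, for the 30 h list (blue) and the 6 h list (orange), with 95% Wilson intervals as bars. Both curves fall from the weakest to the strongest decile, by fold enrichment from 66.2% to 3.02% at 30 h and from 16.2% to 0.0772% at 6 h.

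The 6 strongest regions by fold enrichment of each class show what a call at one time looked like at its clearest. Among the regions called at 30 h only, the leading one was chr1:5060343-5060867. Its fold enrichment was 29.9 and its -log10 q 173. Its nearest 6 h region was 11.9 kb away. The next, chr3:159387400-159387994, reached a fold enrichment of 29.3 and lay 63.0 kb from the nearest 6 h region. Of the 6, chr15:13314560-13314981 (fold enrichment 28.8) was the one without a DMSO region. The others were chr19:11505672-11506396 (fold enrichment 27.9), chr10:7109166-7109578 (27.3), and chr3:41032467-41032826 (26.9). All 6 stood at or above percentile 99 of the 30 h list and were 360 to 725 bp wide. The one on chromosome 10 was the most isolated, 200 kb from any 6 h region.

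The 6 strongest regions called at 6 h only stood at percentiles 85.8 to 94.2 of the 6 h list, and 4 of them had no DMSO region. At chr13:21939605-21940111 the fold enrichment was 22.7, and the nearest 30 h region was 6.75 kb away. A broader region of 888 bp with 3 summits, chr2:151319594-151320481, reached 22.2. These 2 lacked a DMSO region. So did chr3:96283259-96283838 (fold enrichment 19.8) and chr17:23013324-23013568 (19.6). The regions chr18:87261120-87261650 (20.8) and chr4:122132433-122132668 (20.2) overlapped a DMSO region, and the latter was 353 kb from the nearest 30 h region.

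Regions called at one time only were narrow and mostly had a single summit. At 30 h their median width was 453 bp (quartiles 336 and 593 bp), against 713 bp (529 and 932 bp) for the shared regions of that list. At 6 h it was 426 bp (312 and 560 bp) against 677 bp (495 and 881 bp). A single summit was found in 72.3% of the regions called at 30 h only (71.5 to 73.0%) and in 39.8% of the shared ones (39.2 to 40.4%), and at 6 h in 74.7% (72.6 to 76.6%) and 42.9% (42.2 to 43.5%). Of the 30 h regions with 1 summit 51.7% had no 6 h region (51.0 to 52.4%), and of those with 4 or more 6.53% (5.61 to 7.58%). In the narrowest quartile of the 30 h list, 150 to 432 bp, 66.9% had no 6 h region (65.9 to 67.8%), and in the widest, 824 to 2426 bp, 9.03% (8.47 to 9.62%).

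Width goes with strength, and the difference was smaller at similar -log10 q. Averaged with equal weights over the deciles of -log10 q, the share of 30 h regions without a 6 h region was 40.8 ± 0.816% in the narrowest quartile and 27.7 ± 1.19% in the widest (95% intervals from the binomial variances). In the 6 h list the same averages were 8.55 ± 0.473% and 2.80 ± 0.771%.

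**Figure D2:**
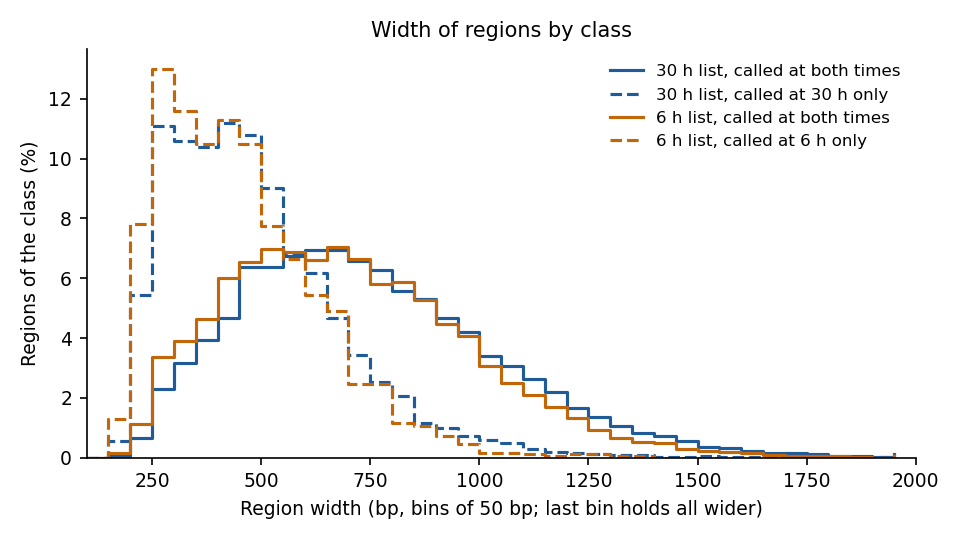
Distribution of region width (bp, horizontal axis, bins of 50 bp) as a share of each class (%, vertical axis), for regions called at both times (solid) and at one time only (dashed) in the 30 h list (blue) and the 6 h list (orange). The dashed curves lie at smaller widths, with medians of 453 and 426 bp against 713 and 677 bp.

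The spacing of regions differed little between the classes. The median gap to the nearest region of the same list was 8.69 kb for the regions called at 30 h only and 8.38 kb for the shared 30 h regions, and 14.3 and 12.7 kb in the 6 h list, which holds fewer regions. By quartile of this gap, the share of 30 h regions without a 6 h region ran from 36.1% to 39.1%, beside 37.1% for the whole list. At similar -log10 q it ran from 35.3 ± 0.703% in the quartile with the smallest gaps to 38.0 ± 0.718% in the next one.

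Few of the regions called at one time only lay beside a region of the other time. The median distance from a region called at 30 h only to the nearest 6 h region was 13.7 kb, and 761 of 14256 (5.34%) had one within 500 bp, while 1200 had none within 100 kb. For regions called at 6 h only the median distance to a 30 h region was 9.90 kb, with 137 of 1780 (7.70%) within 500 bp and 115 beyond 100 kb. The others lay farther from any region of the other time.

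Regions of the 30 h list without a 6 h region formed 8811 runs of direct neighbours in the list, of which 5446 were single regions and 1281 held 3 or more. Such runs also arise without any clustering in a class that makes up 37.1% of the list, so nothing is read from their number. The longest runs held 9 regions. One spanned 469 kb at chr5:89707282-90176564, and all 9 of its regions overlapped DMSO regions. The other spanned 564 kb at chr19:30291844-30855643, and 2 of its 9 regions had a DMSO region. A run of 8 regions spanned 119 kb at chr1:31090680-31210171, 7 of them with a DMSO region. In the 6 h list 1512 of 1641 runs were single regions and none was longer than 3. Of the 10 runs of 3, the one with the shortest span, 9.48 kb, was at chr13:22016490-22025968, and 0 of its regions had a DMSO region.

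The label from the vehicle list set the classes apart from the shared loci. By the lowest background, the depth at 30 h was 80.7% and that at 6 h 63.0% of the DMSO list. Of all 30 h regions, 82.1% overlapped a DMSO region, and of all 6 h regions 92.6%. Among the loci called at both times 95.2% had one (95 to 95.5%). The share was 59.8% for those called at 30 h only (8520 of 14256, 59.0 to 60.6%) and 56.7% for those called at 6 h only (1010 of 1780, 54.4 to 59.0%), and these 2 intervals touch at 59.0%. The loci called at 30 h only thus held 8520 that were called in vehicle cells and not at 6 h, and 5736 that were not called in either other list. With lists of equal length by fold enrichment the shares with a DMSO region were 48.7% at 30 h only and 21.2% at 6 h only.

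Regions of the 30 h only class with a vehicle counterpart were the stronger part of it. Their median percentile in the 30 h list was 33.5 and that of the regions without was 24.5. The median widths were 492 and 397 bp. By decile of fold enrichment the share of the class with a DMSO region was 56.4% in the weakest (54.5 to 58.3%), 51.1% in the third (49.0 to 53.1%) and 92.2% in the strongest (85.9 to 95.9%), where it was 107 of 116. Over all 30 h regions the share without a DMSO region also fell, from 33.1% in the weakest decile to 0.755% in the strongest. In the 6 h only class the median percentiles were 22.8 with and 21.0 without a DMSO region, and the 2 regions in the strongest decile had none. Within the DMSO list itself, the counterparts of the 30 h only class had a median percentile of 39.1 and those of the shared 30 h regions 64.7.

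Looked at from the label, the regions without a vehicle counterpart were mostly called at 30 h alone. Of the 6894 30 h regions without a DMSO region, 83.2% had no 6 h region (82.3 to 84.1%), against 27.0% of the 31528 with one (26.5 to 27.5%). In the 6 h list 40.0% of the 1923 without a DMSO region had no 30 h region (37.9 to 42.2%), against 4.21% of the 23999 with one (3.96 to 4.47%). Label and class both went with strength, and they were not compared at similar strength. From the weakest to the strongest decile of -log10 q at 30 h, the share without a DMSO region fell from 59.1% to 0%. The share without a 6 h region fell from 90.1% to 0.0260%.

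The pileup at the summit, the depth of reads or fragments covering it, was recovered from each entry and scaled by the ratio of the lowest backgrounds, to give the pileup that a region would be expected to have in the other list if its accessibility were the same. Regions with a high expected pileup were called at both times. Of 3121 30 h regions with an expected pileup of at least 256 at 6 h, 0 lacked a 6 h region (0 to 0.123%). Of 4279 6 h regions at that pileup in the 30 h list 0 lacked a 30 h region (0 to 0.0897%). At an expected pileup of at least 64, 13.0% of 22019 30 h regions had no 6 h region (12.6 to 13.5%), and 2.09% of 19848 6 h regions had no 30 h region (1.90 to 2.29%). At 128 or more the shares were 2.08% (232 of 11134, 1.83 to 2.37%) and 0.306% (34 of 11110, 0.219 to 0.427%).

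At equal expected pileup the 30 h list held the larger share of regions without a counterpart in the main setting, which other settings changed. Over bins of expected pileup with at least 50 regions of each list, weighted to the 30 h regions, 36.5% of 30 h regions had no 6 h region (95% interval from the binomial variances 36.1 to 36.9%) and 13.4% of 6 h regions had no 30 h region (12.3 to 14.5%). The difference was 23.1 percentage points (21.9 to 24.2). It was 11.9 points (11.1 to 12.7) with a scale that sets the median of the matched regions equal, and turned to -2.93 points (-3.70 to -2.15) with lists of equal length by fold enrichment. In the main setting the bin from 22.6 to 32.0 was weighted by its 3974 30 h regions. It held only 98 6 h regions, of which 43 had no 30 h region (43.9%). The part of depth in the difference was not tested.

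The label moved with expected pileup in the 30 h only class. Of the 232 regions called at 30 h only with an expected pileup of at least 128, 201 had a DMSO region (86.6%, 81.7 to 90.4%), against 18 of the 34 called at 6 h only (52.9%, 36.7 to 68.5%). Of all 30 h regions at that pileup 99.6% had one, and of all 6 h regions 99.5%. Their median widths were 442 and 322 bp, and 41 of the 232 and 10 of the 34 lay within 500 bp of a region of the other time.

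**Figure D3:**
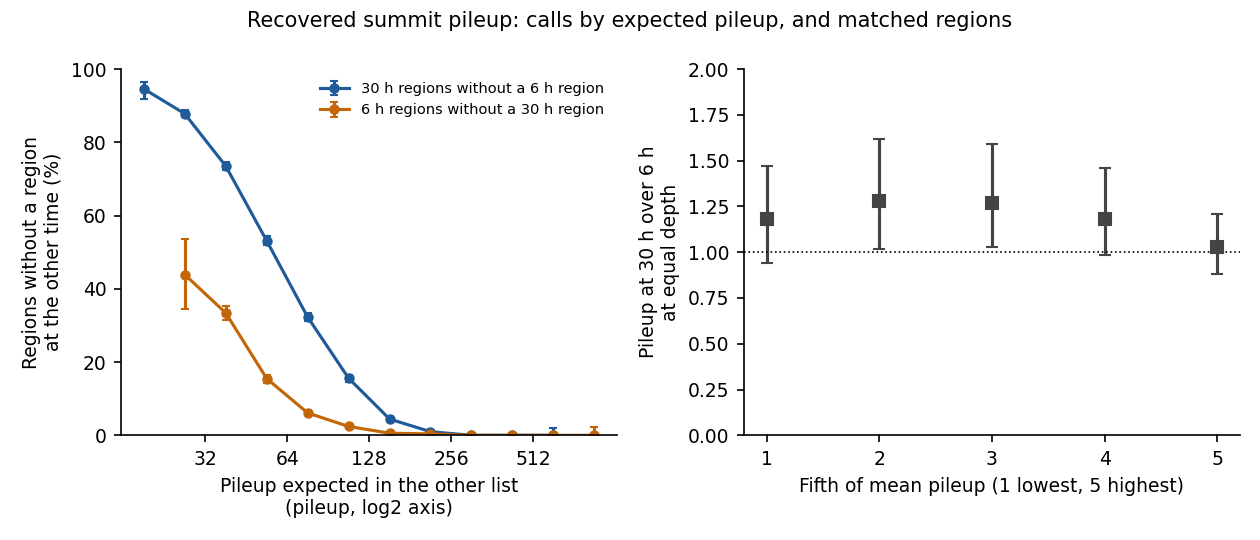
Left, share of regions without a region at the other time (%) by the summit pileup expected in that other list (log2 axis), for 30 h regions (blue) and 6 h regions (orange), in bins with at least 50 regions and with 95% Wilson intervals. Right, pileup at 30 h over 6 h at equal depth in matched regions, as median and quartiles by quintile of mean pileup, with the median nearest to 1 in the strongest quintile (1.03).

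Loci called at both times were followed in the 23507 pairs matched one to one, 90.7% of the 6 h regions and 61.2% of the 30 h regions. Their main summit moved little. The median shift between the main summits was 11 bp (quartiles 5 and 22 bp), and 91.6% moved by at most 50 bp (91.2 to 91.9%). The signed shift had a median of 0 bp. Where the region had 1 summit at both times, 4.68% moved by more than 50 bp (4.23 to 5.17%), and where it had at least 2 at either time, 10.3% (9.80 to 10.7%).

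Large shifts were mostly found in regions with several summits, and often ran between summits that both lists called. Of the 1238 pairs whose main summit moved by more than 100 bp, 1185 had at least 2 summits at one of the times (95.7%, 94.4 to 96.7%), beside 15873 of all 23507 matched regions. In 789 (63.7%, 61.0 to 66.4%) each main summit lay within 50 bp of a summit that the other list also called. The largest shift, 1429 bp, was at chr19:29879534-29881271 at 6 h and chr19:29879524-29881269 at 30 h. Its edges hardly moved, it had 6 and 5 summits, and the 30 h main summit lay 8 bp from a 6 h summit. The next were chr6:39155056-39157134 at 6 h, shifted by 1416 bp, and chr15:101863791-101865410, shifted by 1362 bp with 4 summits at each time.

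Matched regions were slightly wider at 30 h. Their median width was 676 bp at 6 h and 715 bp at 30 h, and the median of the differences was 25 bp (quartiles -25 and 104 bp). Wider at 30 h were 63.9% (63.2 to 64.5%) and narrower 35.4% (34.8 to 36.0%). The left and the right edge each moved outward by a median of 8 bp, but in 33.8% of regions both moved out. In 42.8% 1 edge moved out and 1 in, and in 12.6% both moved in. Changes beyond 300 bp were uncommon, with 1358 regions wider (5.78%) and 322 narrower (1.37%). The deeper list was also the one with the wider regions, and the part of depth in this difference was not tested.

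Regions were more often wider than narrower at 30 h over the whole range of widths. By quintile of the mean width over both times, the median difference was 17.0 bp in the narrowest (180 to 484 bp) and 42.0 bp in the widest (952 to 2338 bp), with 62.5% and 69.8% of regions wider at 30 h. The number of summits rose in 21.5% of matched regions (20.9 to 22.0%), fell in 15% (14.5 to 15.4%) and was the same in 63.6% (63.0 to 64.2%).

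**Figure D4:**
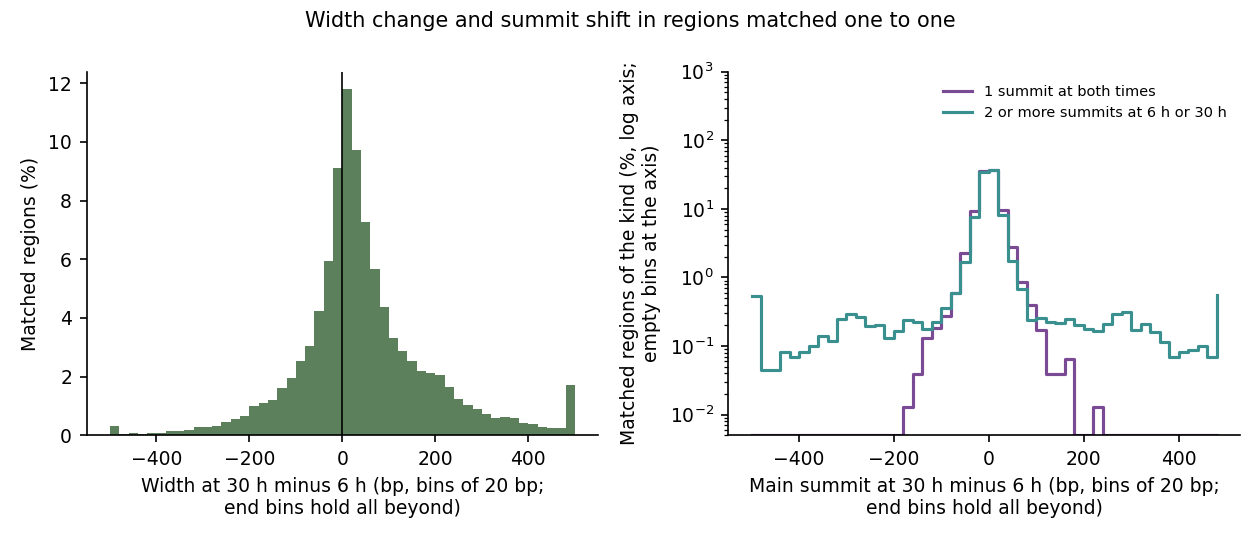
Left, width at 30 h minus 6 h (bp) in the 23507 matched regions, as the share per bin of 20 bp, with the bulk near the median of 25 bp and a longer tail of wider regions. Right, main summit at 30 h minus 6 h (bp) as the share per bin on a log axis, for regions with 1 summit at both times (purple) and with at least 2 at either time (teal), where shifts beyond 200 bp are found almost only in the latter.

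The largest changes in width added or removed whole summits while the main summit stayed. On chromosome 12 a region of 661 bp with 2 summits (31758393 to 31759053) became 2097 bp with 8 summits (31758455 to 31760551), and its main summit moved by 6 bp. On chromosome 8 a region of 1057 bp (129259010 to 129260066) became 2355 bp (129258799 to 129261153), with 3 and 6 summits. On chromosome 11 a region of 271 bp with 1 summit (32122175 to 32122445) became 1479 bp with 5 (32120956 to 32122434). In the other direction, a region on chromosome 15 went from 1761 bp and 5 summits (85410809 to 85412569) to 632 bp and 1 summit (85411927 to 85412558). One on chromosome 17 went from 1781 bp (27692328 to 27694108) to 744 bp (27693226 to 27693969), and one on chromosome 2 from 1773 bp (151355017 to 151356789) to 800 bp (151356025 to 151356824). All 6 overlapped a DMSO region, and their main summits moved by 2 to 23 bp.

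Few regions were split or joined between the times. Of the 6 h regions 230 overlapped 2 or more 30 h regions (0.887%, 0.780 to 1.01%), and of the 30 h regions 206 overlapped 2 or more 6 h regions (0.536%, 0.468 to 0.614%). The parts were separated by a median gap of 105 bp in the first case and 101 bp in the second. In the DMSO list the locus was a single region in 166 of the 230 and in 167 of the 206. In each list 1 region met 3 of the other, chr5:138612116-138613778 at 6 h and chr10:79495517-79497156 at 30 h. The widest of the 6 h regions that met 2 was chr10:127078877-127081365, with 10 summits over 2489 bp.

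The order of matched regions by fold enrichment was largely kept. Spearman's rho between the lists was 0.822 for fold enrichment, 0.844 for width and 0.891 for pileup over the 23507 pairs, as a description across regions that share their libraries. Of the 2351 strongest matched regions at 6 h by fold enrichment, 1399 were also among the 2351 strongest at 30 h (59.5%). From the strongest decile at 6 h 8 fell below the middle at 30 h, and 69 went from below the middle to the strongest decile.

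Pileup at equal depth was higher at 30 h in 70.1% of matched regions (69.5 to 70.7%), with a median ratio of 1.18 (quartiles 0.958 and 1.48). It at least doubled in 1605 regions (6.83%, 6.51 to 7.16%) and fell to 0.5 or less in 84 (0.357%, 0.289 to 0.442%). By quintile of mean pileup the median ratio was 1.18 in the lowest, 1.28 and 1.27 in the next ones, 1.18 in the fourth and 1.03 in the highest, where 53.9% were higher at 30 h. The 1605 regions with a doubled pileup had a median percentile of 30.4 in the 6 h list, beside 53.5 for all matched regions. In the 30 h list it was 74.5, beside 65.1. Choosing regions by this ratio favours a low rank at 6 h and a high one at 30 h, so nothing is read from these ranks. Of the 1605 regions 97.9% overlapped a DMSO region, against 95.2% of all matched regions. They widened by a median of 55.0 bp, while the 84 with the strongest decrease narrowed, with a median difference of -44.0 bp. In the 1134 matched regions without a DMSO region the median ratio was 1.12 and the median width difference 13 bp, against 1.18 and 25 bp in the 22373 with one. These ratios rest on the lowest background as the measure of depth.

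Every chromosome in the lists carried regions of each class. The share of 30 h regions without a 6 h region was 33.2% on chromosome 19 (30.9 to 35.6%), 33.8% on chromosome 11 (32 to 35.6%) and 34.2% on chromosome 7 (32.4 to 36.1%), the lowest values. The highest was 41% on chromosome 12 (38.3 to 43.6%), beside 37.1% for the list, and its interval did not overlap those of these 3 chromosomes. For 6 h regions without a 30 h region the share ran from 5.25% on the X chromosome (3.72 to 7.35%) to 8.06% on chromosome 13 (6.64 to 9.76%), beside 6.87%, and these 2 intervals overlapped. The chromosomes named are the extremes of 20, and the intervals are not adjusted for that choice. Region strength was not compared between chromosomes.

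**Figure D5:**
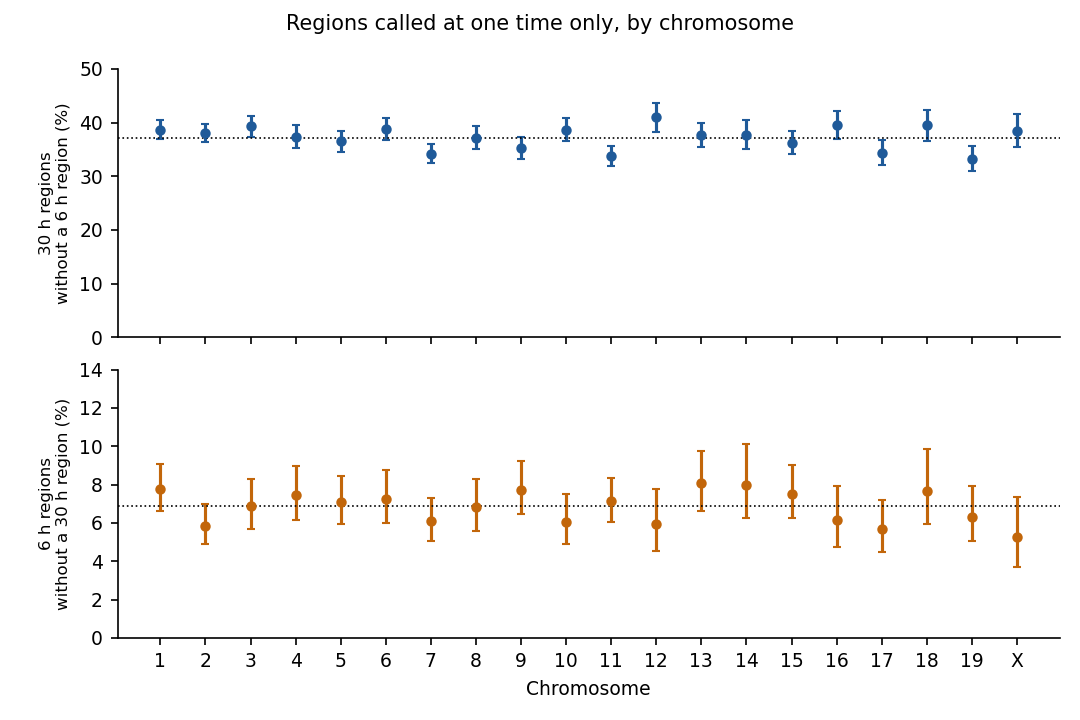
Share of 30 h regions without a 6 h region (top, %) and of 6 h regions without a 30 h region (bottom, %) on each chromosome, with 95% Wilson intervals, and the share over the whole list as a dotted line (37.1% and 6.87%). Chromosomes 7, 11, 17 and 19 lie lowest in the top panel and chromosome 12 highest.

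Shares in windows of 1 Mb rest on few regions each, and their spread includes that counting error. Among the 797 windows with at least 20 regions of the 30 h list the median share without a 6 h region was 35.8% (quartiles 29.2 and 42.9%), from 4.76% to 70.0%. The most such regions in a window were 27, found in 3 of them. At chr5:36000001-37000000 they were 27 of 44 (61.4%, 46.6 to 74.3%), beside 37.1% for the list. The other windows were chr8:129000001-130000000 (of 58, 46.6%, 34.3 to 59.2%) and chr2:167000001-168000000 (of 72, 37.5%, 27.2 to 49.0%). The intervals of these other windows include the share of the list. At chr6:134000001-135000000 they were 25 of 51 (49.0%, 35.9 to 62.3%). Of these 25, 11 had a DMSO region, beside 59.8% of all loci called at 30 h only. In the 3 windows with 27 such regions, 18, 17 and 18 had one, in the order named. The highest share was at chr17:81000001-82000000, where 14 of 20 had no 6 h region (70.0%, 48.1 to 85.5%). Then came chr2:117000001-118000000 (20 of 29), chr16:25000001-26000000 (14 of 21) and chr5:89000001-90000000 (19 of 29).

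Of the regions called at 6 h only, found in 1089 windows, the most in a window was 7 of 52, at chr15:78000001-79000000. That share was 13.5% (6.68 to 25.3%), and its interval includes the 6.87% of the whole list. Next were chr19:34000001-35000000, 6 of 23 regions and 4 of the 6 with a DMSO region, and chr13:22000001-23000000, 6 of 24 regions and 0 of the 6 with a DMSO region.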

How the data were processed

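Peak lists of NMuMG cells were analysed, 1 per group of 2 samples, each made by the authors from both replicates, per the labels. MACS2 2.1.2 and mm9 are named per the submitters' processing notes. Aligner, read filters and any Tn5 shift are not given in the sources used here. An entry holds a deposited score, the fold enrichment (a ratio) at the summit, the -log10 p and -log10 q, and the summit offset, all as deposited by the authors without scaling between lists.

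A merged region took the maximum of each value over its entries, and its main summit from the entry whose fold enrichment was highest. The gap between regions was measured edge to edge. Pileup and background were solved from fold enrichment and -log10 p under the caller's default pseudocount of 1 and a Poisson tail, with whole-number pileups. For 100% of entries the solution came within 0.001 of the deposited -log10 p. Relative depth was the lowest background, met in 2052 entries at 6 h and 5970 at 30 h. Merging, overlap and pileup recovery were tested on simulated data. Python 3.11.15, pandas 2.3.3 and scipy 1.17.1 were used.

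The comparison, its classes and the regions named were chosen with earlier results of these data known. Regions named were the 6 strongest called at each single time, the 3 most widened, narrowed and shifted, the longest runs (ties by the shortest span), the leading windows of 1 Mb and the 3 that met the most regions of the other list. Gene lists and sequences were not used, because the tables at hand are of the build GRCm38.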

Additional observations from a re-analysis of the deposited data

How the results depend on the processing

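In the alternatives, values are given in the order of the share of 30 h regions without a 6 h region, 6 h regions without a 30 h region, the share with a DMSO region at 30 h only and at 6 h only, the median width difference, the median summit shift, and both shares at equal expected pileup, and those not given stayed within their interval or were not computed for that alternative. With an overlap of at least 50% they were 38.4%, 7.38%, a width difference of 23.0 bp and 37.8% of 30 h regions at equal pileup. With the main summit inside the region they were 37.7%, 7.78%, 58.0%, 51.6% and 37.1% of 30 h regions at equal pileup. With regions within 500 bp shared they were 35.1%, 6.34%, 27.0 bp and 34.6% of 30 h regions at equal pileup. With a score of 1000 required in every list, so that lower counterparts drop out, they were 40.1%, 3.40%, 72.3%, 67.3%, a shift of 10.0 bp, and 30.4% and 5.51% at equal pileup. With every entry counted they were 28.5%, 4.79%, 62.6%, a width difference of 15 bp, and 27.6% and 5.67% at equal pileup. That width difference covers 7634 pairs instead of 23507, as many as had 1 summit at both times, because entries that share an interval cannot match one to one. With all 3 lists, DMSO included, cut to equal length by fold enrichment they were 25%, 24.5%, 48.7%, 21.2%, 28.0 bp, and 25.1% and 28.0% at equal pileup. Cut by -log10 q they were 17.4%, 17.1%, 47.5% and 30.0%. The nearest pair of summits gave a median shift of 8 bp. A minimum -log10 q of 5 and merging entries within 100 bp moved no value beyond its interval, nor did every overlapping pair for the width. Of 73 values under alternatives 41 moved beyond their interval and 32 did not. Equal lists remove the weakest regions of the longer list by construction, while elsewhere the cause was not tested.

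Scales chosen after seeing the data gave 26.6% and 14.8% at equal pileup when the median of matched regions was set equal, and a median pileup ratio of 1.15 when that of their strongest quintile was. No paired analysis was possible because the authors made 1 list from the 2 replicates of a group, which also prevents leaving either of them out. With 1 list per time, how far 2 lists of the same time would differ is not known. Relative depth rests on the lowest background, and how far depth limited the calls at 6 h was not tested.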

Other observations

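The strongest region called at 6 h only lay in a part of chromosome 13 where the classes departed from the rest of the lists, in a span picked after its values were seen. Over chr13:21000001-24000000 the lists held 120 regions at 6 h and 118 at 30 h. Of the 6 h regions 17 had no 30 h region (14.2%, 9.04 to 21.5%), beside 6.87% over the list, and of the 30 h regions 16 had no 6 h region (13.6%, 8.52 to 20.9%), beside 37.1%. A DMSO region overlapped 1 of these 17, against 1010 of all 1780 called at 6 h only (56.7%). It overlapped 10 of the 16, which is near the share of all regions called at 30 h only (8520 of 14256, 59.8%). The 17 had fold enrichments from 4.25 to 22.7 with summit pileups from 37 to 182. They included the run of 3 regions at chr13:22016490-22025968, 1 of 10 runs of that length in the 6 h list.

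Matched regions on chromosomes 11 and 4 had the lowest median pileup ratio between the times, 1.08 and 1.10 at equal depth, where the other chromosomes ranged from 1.14 to 1.23. The region called at 6 h only with the highest pileup was chr2:151319594-151320481, with a pileup of 190 and 243 expected at 30 h. At 30 h only it was chr16:45966767-45967200, with a pileup of 322 and 251 expected at 6 h, and a 6 h region lay 0.459 kb from it.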
